A study of Mus musculus with 6 samples.

Results

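The Krüppel-like factors described here are 9 transcription factor genes, Klf2, Klf3, Klf4, Klf6, Klf7, Klf10, Klf11, Klf12 and Klf13. They were taken by symbol from a table of RNA sequencing counts with 23412 rows, which held 17 Klf genes in all. Their RNA was measured in splenic germinal centre B cells, sorted as positive for B220, GL7 and Fas 10 days after mice received sheep red blood cells intraperitoneally. DAF-TM mice had the genotype Cg1-cre(+/-);R26-DAF-TM(fl/fl), and control mice had Cg1-cre(+/-), so the Cre allele was shared by both groups. One label writes the controls as DAF-Tg(+/+), and the header of the table writes the Cre allele as cg1-cre (+/fl). Cg1-cre drives Cre recombinase in B cells that enter the germinal centre, and DAF is decay accelerating factor, a surface protein that limits complement and is encoded in mice by Cd55. The age, sex and strain of the mice are not given in the labels, nor is whether a sample came from 1 mouse or from pooled mice. The labels name 3 samples per group, but the columns of DAF-TM samples 2 and 3 were identical in all 23412 rows. They were therefore counted as 1 sample, and the comparison rested on 2 DAF-TM and 3 control libraries. P-values rest on the spread between these libraries, which for most genes was pooled largely over all genes and may be technical in part.

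Krüppel-like factors bind DNA through 3 zinc fingers at the end of the protein and recognise GC-rich sites and CACCC boxes. Their other parts differ and set their roles. KLF2, KLF4, KLF6 and KLF7 are mainly activators, KLF3 and KLF12 recruit the corepressor CtBP, and KLF10, KLF11 and KLF13 recruit the corepressor Sin3. In lymphocytes KLF2 is known as a factor of resting cells that sustains receptors for homing and exit from lymphoid organs, and its RNA is low in activated and germinal centre B cells.

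The end of the zinc finger stretch shows how close the genes are to each other and where their RNA differs. The coding sequence of the third finger is given below for all 9 genes (63 bases each, transcript strand, 5′ to 3′, GENCODE release M21), with capitals at the 21 bases that are identical in all of them.
Klf2: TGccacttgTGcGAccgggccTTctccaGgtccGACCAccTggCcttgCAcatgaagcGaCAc
Klf4: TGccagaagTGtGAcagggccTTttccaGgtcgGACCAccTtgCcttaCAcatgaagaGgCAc
Klf6: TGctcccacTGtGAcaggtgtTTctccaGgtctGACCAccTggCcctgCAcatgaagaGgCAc
Klf7: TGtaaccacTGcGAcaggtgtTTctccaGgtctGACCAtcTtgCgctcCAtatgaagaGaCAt
Klf3: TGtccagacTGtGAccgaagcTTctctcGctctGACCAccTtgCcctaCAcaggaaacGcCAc
Klf12: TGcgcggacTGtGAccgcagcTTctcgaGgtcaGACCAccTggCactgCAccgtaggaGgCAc
Klf10: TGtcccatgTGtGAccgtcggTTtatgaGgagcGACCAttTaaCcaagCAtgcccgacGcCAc
Klf11: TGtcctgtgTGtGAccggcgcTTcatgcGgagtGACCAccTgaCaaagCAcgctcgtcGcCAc
Klf13: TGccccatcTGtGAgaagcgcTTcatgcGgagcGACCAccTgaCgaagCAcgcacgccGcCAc

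Over the whole stretch of 3 fingers (243 bases) the 36 pairs of genes shared between 58.8% and 81.1% of their bases. The closest pair was Klf6 and Klf7, and Klf2 with Klf4 and Klf3 with Klf12 followed at 78.2% each. Klf6 and Klf7 were also the members in which the third finger was split over exons 3 and 4, while in the other 7 genes it lay within the last exon. No stretch of 100 bases, the length of a read, was shared exactly between the transcripts of any Klf gene and another Klf gene. Counts of these paralogs could therefore be separated by sequence wherever a read matched without error. Klf3 shared 404 of its 5386 exon bases with Gm20033 and Klf7 shared 3196 of its 8050 with Gm26649, both on the opposite strand. The sources used here do not say whether counting used strand, and reads from those stretches cannot be told apart by gene without it. Gm20033 and Gm26649 were not found as rows of the table.

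The 9 genes lie on 9 different chromosomes. Klf2, at chr8:72319033-72321656 on the plus strand (GRCm38), is a compact gene of 3 exons, and Klf3 lies at chr5:64803388-64832901 on the same strand. The sequence before the first annotated exon base is shown for these genes because they had the largest fold changes of the family. Both stretches come from the RefSeq promoter table (GRCm38.p6), at chr8:72318812-72319032 and chr5:64803271-64803387, plus strand, and capitals mark every match to a motif listed after them.
Klf2: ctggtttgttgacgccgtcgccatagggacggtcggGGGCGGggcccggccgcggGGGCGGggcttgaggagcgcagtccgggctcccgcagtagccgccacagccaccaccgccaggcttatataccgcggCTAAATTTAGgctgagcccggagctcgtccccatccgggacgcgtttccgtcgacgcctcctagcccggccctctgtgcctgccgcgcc
Klf3: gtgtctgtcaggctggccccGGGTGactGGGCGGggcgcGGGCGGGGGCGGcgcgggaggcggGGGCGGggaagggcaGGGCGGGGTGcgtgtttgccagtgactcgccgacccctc

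The letters of 5 motifs were searched on both strands of the 250 bases before each RefSeq start, and 8 of the 9 genes had an entry (Klf10 is named only). The GC box GGGCGG was found in 7 of the 8 genes and in 32.74% of all 32851 promoter windows. The CACCC box, letters CACCC, was found in 5 of the 8 and in 52.01% of all windows, and in Klf3 it overlapped a GC box in 1 place. The MEF2 element was found in Klf2, 118 to 109 bases before the start, in no other member, and in 0.51% of all windows. The cAMP response element TGACGTCA (1.55% of windows) and the forkhead element GTAAACA (3.17%) were found in none of the 8. These matches describe letters only.

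Some facts of the libraries bear on all that follows. Total counts were 11280400 and 10684753 in DAF-TM libraries 1 and 2 and between 7257339 and 12783965 in the controls. Cd55 stood at 712 and 725 CPM (counts scaled to library size with TMM normalisation factors) in the DAF-TM libraries and at 23.4 to 34.3 in the controls, which goes with the labels. Which part of those reads came from a DAF-TM cassette and which from the endogenous gene cannot be told apart. DAF-TM library 1 stood apart in holding both Xist (296 CPM) and reads of 4 Y-linked genes (289 CPM in sum). DAF-TM library 2 and control library 1 had Xist with at most 1 Y-linked count, and control libraries 2 and 3 had Y-linked reads with Xist under 3 CPM. The 13 germinal centre and pan-B markers were present in every library and summed to 11759.8 to 12860.0 CPM in DAF-TM libraries and 12781 to 15279 CPM in controls.

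The members were chosen by family and selected on fold changes and calls from this same contrast, which were known when they were proposed. Their comparison between the groups is therefore a description and supports no claim about the family. In the fit over all 18767 genes tested (edgeR quasi-likelihood test, two-sided, Benjamini-Hochberg adjusted p under 0.05), 0.410% of genes were called, 0.373% as higher and 0.0373% as lower in DAF-TM libraries. Of the 9 members, all of which passed the filter on low counts, 2 were called higher, Klf2 and Klf3, and 7 were not called (adjusted p from 0.944 to 0.998). An unadjusted edgeR p under 0.05 was found for 5.74% of all genes tested. None of the 9 members was called lower by edgeR, DESeq2 or limma-voom, and 0 of them had an unadjusted edgeR p under 0.05 in that direction. The median log2 fold change of the members was 0.29, against 0.03 over all genes tested. Both DAF-TM libraries lay above every control for 4 members (11.3% of all genes tested did so) and below every control for none (9.02% of all genes), and 20.3% of all genes had no overlap in either direction.

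Klf2 had 701 and 422 counts in DAF-TM libraries 1 and 2, against 152, 277 and 122 in control libraries 1 to 3. Normalised, these were 63.1 and 35.6 CPM in DAF-TM cells and 16.1, 23.5 and 16.6 CPM in control cells. Both DAF-TM libraries were above every control, and they differed from each other by a ratio of 1.77, more than the 1.46 between the highest and the lowest control. The means were 49.4 ± 19.4 CPM in DAF-TM libraries and 18.7 ± 4.13 CPM in controls (SD, n = 2 and 3). The log2 fold change was 1.39 (SE 0.18, edgeR adjusted p = 4.53e-10 over all genes). With DESeq2 the SE was 0.27 and the adjusted p 0.00037, and limma-voom gave an adjusted p of 0.000246. Without DAF-TM library 1, the library with both Xist and Y-linked reads, the log2 fold change was 0.91 and Klf2 was not called (adjusted p = 0.245). It was called under each of the other 11 alternatives tried, with log2 fold changes from 1.28 to 1.74.

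Klf3 encodes a repressor that binds the same CACCC boxes as the activators. It stood at 19.0 and 13.2 CPM in DAF-TM libraries 1 and 2 (211 and 156 counts), against 7.4, 5.17 and 6.27 CPM in control libraries 1 to 3 (70, 61 and 46 counts). The groups did not overlap, and DAF-TM library 1 was again the highest. Means were 16.1 ± 4.12 CPM and 6.28 ± 1.12 CPM in DAF-TM and control libraries (SD, n = 2 and 3), a log2 fold change of 1.36 (SE 0.27; edgeR adjusted p = 0.00042 over all genes). Without DAF-TM library 1 it was 1.07 and not called (adjusted p = 0.428), and under the other 11 alternatives it ran from 1.22 to 1.60 and was called. Between DAF-TM library 2 and control library 1, which matched in their sex-linked reads, the ratio was 2.22 for Klf2 and 1.78 for Klf3, with 1 library each and no test.

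**Figure D1:**
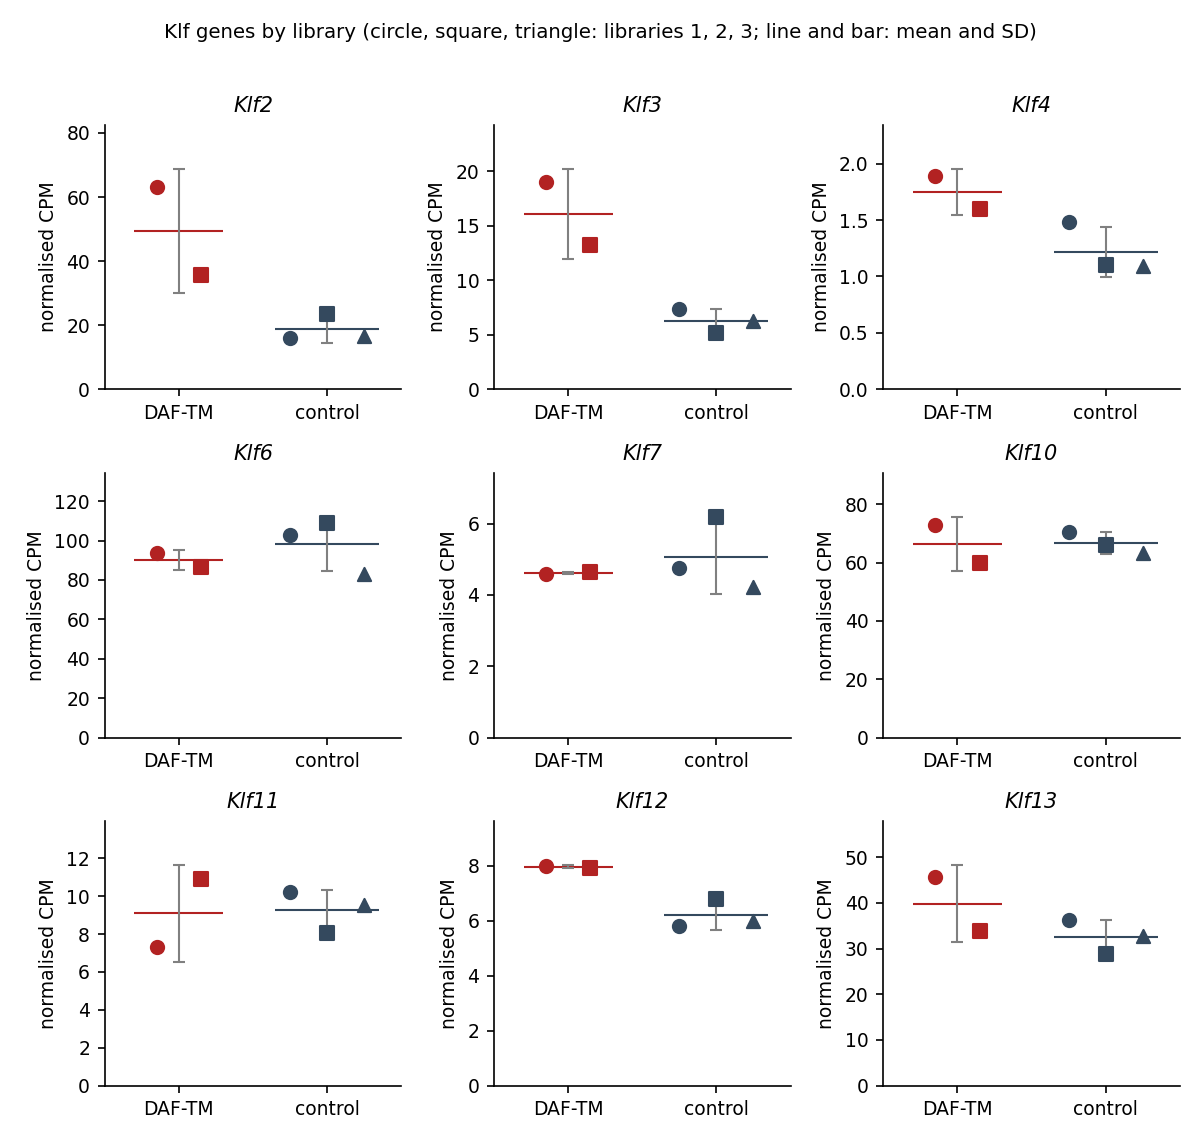
Normalised CPM (y axis, from 0) of the 9 Klf genes in each library, DAF-TM (red, n = 2) left of control (dark, n = 3), with the mean as a line and the SD as a bar. Klf2 (63.1 and 35.6 against 16.1 to 23.5 CPM) and Klf3 (19.0 and 13.2 against 5.17 to 7.4) show the widest gaps, whereas the groups overlap for Klf6, Klf7, Klf10, Klf11 and Klf13.

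Klf4, the closest relative of Klf2 in its fingers and a factor that restrains B cell division, was near the low end of detection. It had 21 and 19 counts in DAF-TM libraries and 14, 13 and 8 in control libraries, or 1.89 and 1.6 CPM against 1.48, 1.1 and 1.09 CPM. The groups did not overlap, but the gap between DAF-TM library 2 and control library 1 was a ratio of 1.08. The log2 fold change was 0.51 with an SE of 0.56, and at these counts a change of this size was not detectable.

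Klf6 and Klf7 are close relatives of each other that activate transcription in many tissues. Klf6, an early response gene, stood at 93.9 and 86.5 CPM in DAF-TM libraries, within the 83.1 to 109 CPM of the controls. Its log2 fold change was -0.13 (SE 0.17). Klf7 stood at 4.59 and 4.64 CPM in DAF-TM libraries and at 4.22 to 6.19 CPM in controls, with a log2 fold change of -0.14 (SE 0.37). The DAF-TM libraries lay inside the control range for both genes.

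Klf12, the relative of Klf3 that also binds CtBP, had 8.01 and 7.94 CPM in DAF-TM libraries and 5.82, 6.78 and 5.99 CPM in controls. The groups did not overlap, and the log2 fold change of 0.36 (SE 0.32) was not called. Per kilobase of exon the ratio of Klf3 to Klf12 was 2.59 and 1.81 in DAF-TM libraries, against 0.834 to 1.39 in controls. The CtBP genes themselves were not called, Ctbp1 at 392 and 346 CPM in DAF-TM libraries against 395 to 463 in controls.

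The Sin3-binding members had smaller fold changes than Klf2 and Klf3. Klf10, induced by TGF-beta in many cells, stood at 72.9 and 59.8 CPM in DAF-TM libraries and at 63.3 to 70.7 CPM in controls (log2 fold change -0.01, SE 0.17). Klf11, a second TGF-beta inducible member, stood at 7.29 and 10.9 CPM in DAF-TM libraries and at 8.06 to 10.2 CPM in controls (-0.02, SE 0.29). For both genes the DAF-TM libraries fell on either side of the control mean. Klf13, known in T cells as an activator of the chemokine gene Ccl5, stood at 45.7 and 33.8 CPM in DAF-TM libraries and at 28.9 to 36.3 CPM in controls. Its log2 fold change was 0.29 (SE 0.18) with all libraries and 0.04 without DAF-TM library 1.

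**Figure D2:**
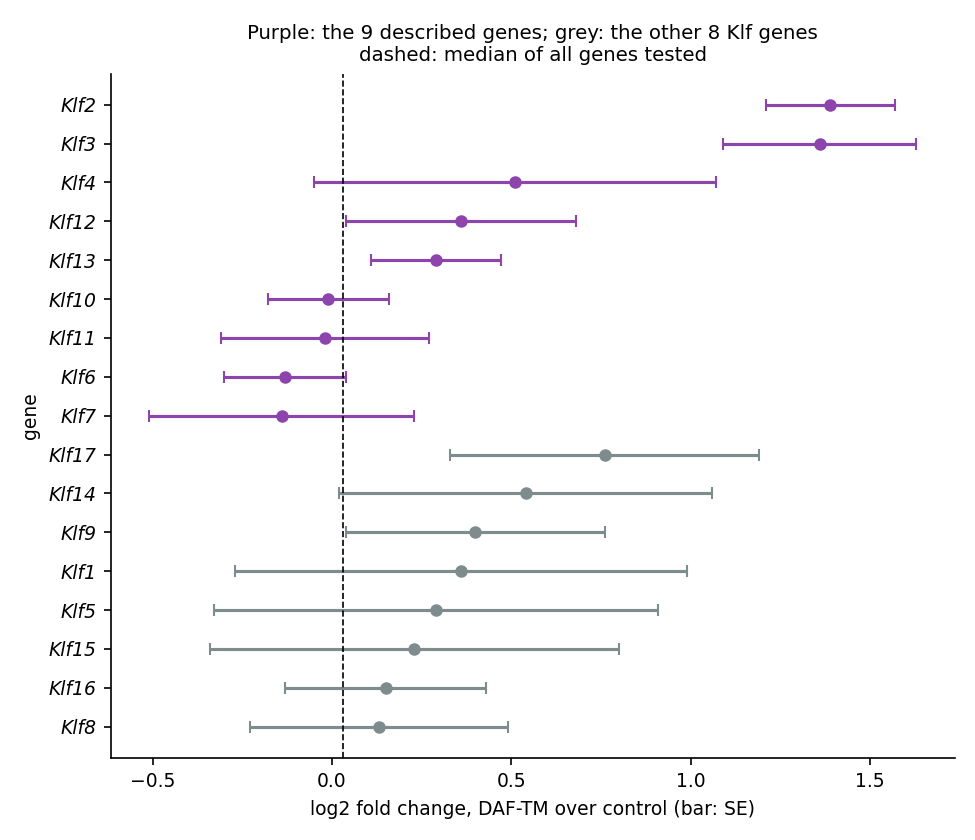
Log2 fold change (x axis) of DAF-TM over control for all 17 Klf genes of the table (rows), with the SE as a bar, in purple for the 9 described genes and grey for the other 8; the dashed line is the median of all genes tested, 0.03. Klf2 (1.39) and Klf3 (1.36) lie apart from the rest, which run from -0.14 for Klf7 to 0.76 for Klf17.

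None of the other 16 tested genes of the wider KLF and SP family was called by edgeR, DESeq2 or limma-voom, and 1 had an unadjusted edgeR p under 0.05. Their median log2 fold change was 0.26, and 11 of the 16 were positive. Klf9, a Sin3-binding member, stood at 5.85 and 6.16 CPM in DAF-TM libraries and at 3.14 to 5.45 CPM in controls (log2 fold change 0.40, SE 0.36). Klf17 had the highest log2 fold change among the other Klf genes, 0.76 (SE 0.43), from 2.88 and 4.56 CPM in DAF-TM libraries and 1.59 to 2.54 CPM in controls (32 and 54 counts against 15 to 30), and its exons share 5.172% of their stretches of read length with Gm20690. Klf1, the erythroid member, stood at 0.27 and 2.2 CPM in DAF-TM libraries and at 0.409 to 1.53 CPM in controls. The most abundant relatives, the general factors Sp3 and Sp1, stood at 278 and 219.9 CPM and at 72.7 and 68.6 CPM in DAF-TM libraries, against 247 to 303 and 70.7 to 77.8 CPM in controls.

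Levels of different genes were compared as normalised CPM per kilobase of exon, with lengths from the GENCODE M21 basic annotation, since the annotation used for counting is not given. In DAF-TM libraries Klf2 led with 19.3 to 34.2 CPM per kb, a range that overlapped the 20.5 to 22.2 of Klf6. Klf10 followed at 15.6 to 19.0, and Klf13 at 5.06 to 6.86. The ranges of Klf3 (2.45 to 3.53) and Klf11 (1.79 to 2.67) overlapped, as did those of Klf4 and Klf7 at the end of the order, with Klf12 between these pairs. In control libraries Klf6 led with 19.7 to 25.8 CPM per kb, ahead of Klf10 at 16.5 to 18.4, Klf2 at 8.7 to 12.7 and Klf13 at 4.34 to 5.44. Below them Klf11 (1.97 to 2.48) was clear of Klf3 (0.96 to 1.37), which overlapped Klf12 (0.988 to 1.15), and Klf7 and Klf4 came last. Over all 5 libraries Klf6 exceeded 80.3% of the 17531 genes with a length, Klf10 76.1% and Klf2 75.5%, whereas Klf4 exceeded 8.11%.

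The 9 genes summed to 90.2 and 68.0 CPM per kb in DAF-TM libraries 1 and 2 and to 55.5 to 65.3 in controls. Klf2 made up 37.9% and 28.4% of this sum in DAF-TM libraries, against 13.8% to 19.5% in controls. Without Klf2 and Klf3 the sums were 52.5 and 46.3 CPM per kb in DAF-TM libraries, within the 45.3 to 52.9 of the controls. The ratio of Klf2 to Klf6 per kilobase was 1.54 and 0.943 in DAF-TM libraries and 0.356 to 0.493 in controls.

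**Figure D3:**
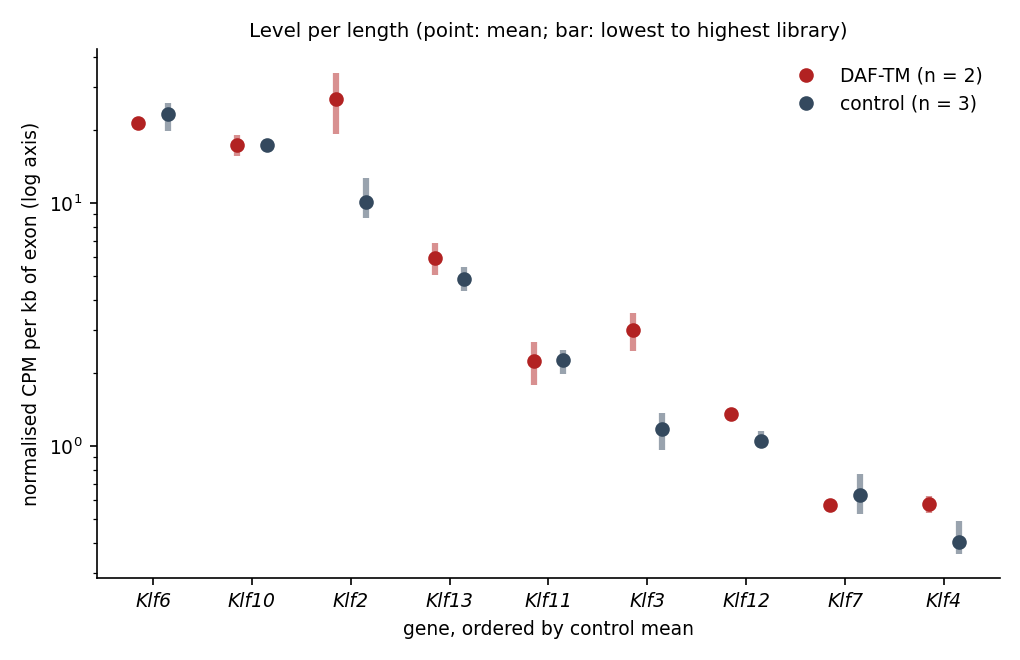
Level of each gene in normalised CPM per kb of exon (log axis), with the mean as a point and the lowest to highest library as a bar, DAF-TM (red, n = 2) left of control (dark, n = 3), genes ordered by the control mean. Klf2 stands behind Klf6 and Klf10 in controls (8.7 to 12.7) and beside Klf6 in DAF-TM libraries (19.3 to 34.2).

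Homing and egress genes linked to KLF2 were read from a list of 11, of which 4 were called higher, none lower and 7 not. Over all genes tested 0.373% were called higher, and the list was chosen with earlier results of these data known. The list median was a log2 fold change of 0.94, against 0.03 over all genes, and 0.61 without DAF-TM library 1. Ccr7, the receptor that guides cells to the T cell zone, stood at 30.8 and 23.6 CPM in DAF-TM libraries and at 7.46 to 8.72 CPM in controls (log2 fold change 1.79, SE 0.23, edgeR adjusted p = 1.48e-11). It was called under each of the 12 alternatives, and without DAF-TM library 1 its log2 fold change was 1.58 (adjusted p = 0.00314). S1pr1, the receptor for exit from lymphoid tissue, stood at 68.6 and 45.4 CPM in DAF-TM libraries and at 18.1, 29.3 and 24.5 CPM in controls (log2 fold change 1.25, SE 0.18, edgeR adjusted p = 8.61e-09). Itgb7, an integrin chain of gut homing, stood at 63.0 and 33.7 CPM in DAF-TM libraries and at 20.2 to 24.0 CPM in controls (log2 fold change 1.11, SE 0.18, edgeR adjusted p = 1.32e-06). Like Klf2 and Klf3, S1pr1 and Itgb7 were not called once DAF-TM library 1 was left out, with log2 fold changes of 0.91 (adjusted p = 0.195) and 0.59 (adjusted p = 0.518). Among the genes not called, Cd69, which removes S1PR1 from the surface, had a log2 fold change of -0.03, and S1pr4 had 0.13. Cxcr3, a list gene that KLF2 holds down in T cells, had -0.84 (SE 1.23). The list median therefore spans genes linked to KLF2 in both directions.

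**Figure D4:**
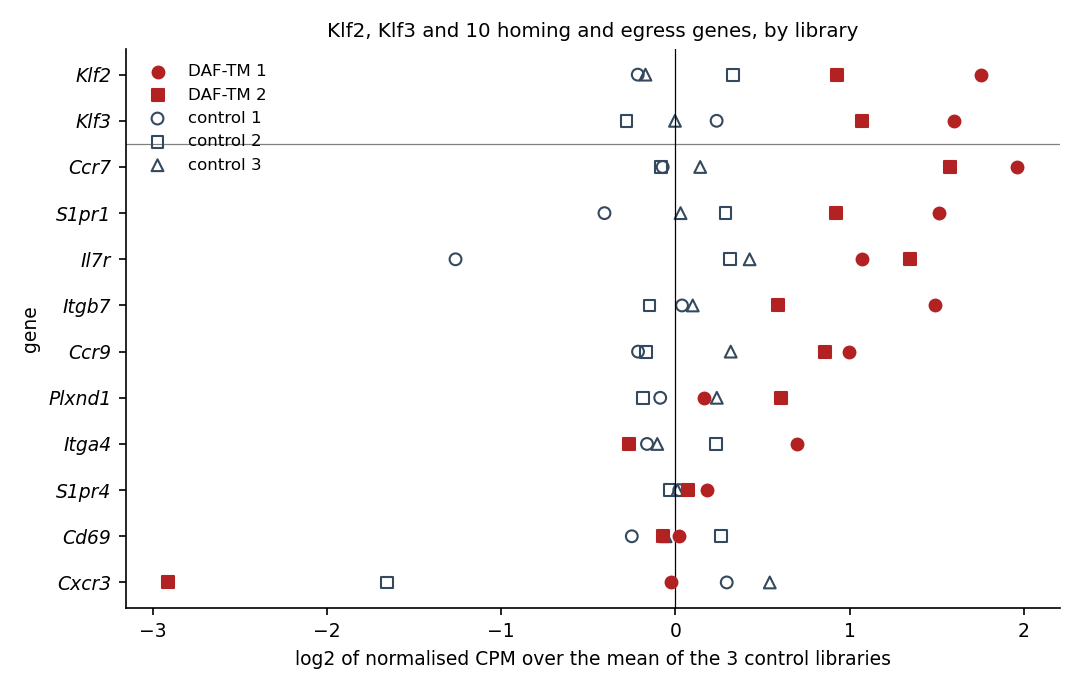
Log2 of normalised CPM in each library over the mean of the 3 control libraries (x axis) for Klf2, Klf3 and 10 homing and egress genes (rows), with filled red symbols for DAF-TM and open symbols for control. DAF-TM library 1 lies to the right of library 2 for Klf2, Klf3, Ccr7, S1pr1 and Itgb7, and both lie to the right of the controls.

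The genes whose profile over the 5 libraries was most like that of Klf2 were S1pr1, Ly6d, Hhex, Mndal and Ifi203. Likeness was the root mean square distance between log2 profiles centred on each gene's mean, 0.151 for S1pr1, 0.159 for Ly6d and 0.224 to 0.228 for the other 3, among 8234 genes with a mean of at least 10 CPM. Ly6d, a surface protein of early lymphoid cells, stood at 286 and 189 CPM in DAF-TM libraries and at 99.1, 142 and 101 CPM in controls. Hhex stood at 30.8 and 17.0 CPM in DAF-TM libraries and at 8.99, 16.8 and 10.6 CPM in controls. In Klf2 and in all 5 of these genes DAF-TM library 1 was the highest and control library 2 the highest control. That order follows from choosing the genes by this profile and is no separate result. Klf7, the member with the lowest fold change, was most like Hmgb1, Etfa, Pdk3, Lsm5 and Hmgn3, at distances of 0.017 to 0.025.

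A list of 11 upstream regulators gave no call in RNA, and RNA counts do not measure the activity of their proteins. MEF2 factors, switched on by the kinase ERK5, and FOXO factors drive Klf2 and Klf4 in other cells. Of 11 such genes none was called by edgeR, DESeq2 or limma-voom and 0 had an unadjusted edgeR p under 0.05. Their median log2 fold change was -0.04, from 4 positive and 7 negative values. Mef2c stood at 748 and 659 CPM in DAF-TM libraries and at 726 to 956 CPM in controls, and Mef2b at 402 and 326 against 359 to 412 CPM. Mapk7, which encodes ERK5, had a log2 fold change of 0.06 and Foxo1 had 0.11.

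Partners and linked pathways gave no call either. Of 13 corepressor, coactivator and degradation partners 0 were called by the same 3 tools and 0 had an unadjusted p under 0.05 (median -0.10). Hdac1, the histone deacetylase of the Sin3 complex, stood at 406 and 343 CPM in DAF-TM libraries and at 419.5 to 463 in controls (log2 fold change -0.25, SE 0.17). Fbxw7, which marks several Krüppel-like factors for degradation, had a log2 fold change of 0.11. Of 14 genes of TGF-beta signalling none was called by these tools, 2 had an unadjusted p under 0.05, 1 in each direction, and the median was -0.12. Smad3, a signal transducer of the pathway, stood at 20.8 and 16.4 CPM in DAF-TM libraries and at 10.2 to 14.6 CPM in controls (0.53 on the log2 scale, SE 0.23, edgeR adjusted p = 0.754). The receptor Tgfbr1 stood at 171 and 177 CPM in DAF-TM libraries, against 202 to 253 in controls (-0.34, SE 0.17, edgeR adjusted p = 0.846), and Tgfbr2 at 231 and 182 CPM against 222 to 235.

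Of 14 genes of quiescence and cell cycle restraint none was called by the 3 tools, and 0 had an unadjusted p under 0.05 (median 0.07). Btg1 and Btg2, which restrain division, were the most abundant. Btg1 stood at 418 and 355 CPM in DAF-TM libraries and at 333 to 409 CPM in controls, Btg2 at 297 and 246 against 243 to 315 CPM, and Cdkn1a, a target of KLF4, had a log2 fold change of 0.33 (SE 0.35). Klf2, Klf4, Klf6 and Klf10 can also respond within minutes to the handling of cells, so 21 immediate early genes were read. None was called by edgeR or DESeq2, limma-voom called 1, and 3 had an unadjusted edgeR p under 0.05, all higher. Their sum was 936 and 733 CPM in DAF-TM libraries 1 and 2 and 771 to 809.8 in controls, and the median log2 fold change was 0.17, against -0.08 without DAF-TM library 1. The most abundant, Dusp2 and Junb, had log2 fold changes of -0.16 and -0.08.

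Some markers of natural killer, T, macrophage and dendritic cells were higher in DAF-TM libraries, as Klf2 and Klf3 were, and their part in the result was not tested. In bulk RNA, more or fewer cells of a type and more or less RNA per cell cannot be told apart. Over all genes tested edgeR called 0.373% higher, and the marker lists were chosen with earlier results of these data known. Of 10 natural killer cell markers 8 were called higher and none lower by edgeR, while DESeq2 called 2, limma-voom 4, edgeR with upper-quartile factors 3 and with the replicate block 2. They summed to 137 and 81.3 CPM in DAF-TM libraries, against 36.0 to 52.2 in controls. Gzma, a granule protease, stood at 24.0 and 12.5 CPM in DAF-TM libraries and at 2.43 to 7.63 in controls, and Nkg7, Klrd1 and Klrk1 had log2 fold changes of 1.70, 2.28 and 1.69. Of 12 T cell markers Tcf7 and Cd3d were called higher by edgeR, while limma-voom called 1 and DESeq2, upper-quartile factors, the replicate block and the fits without control library 1 or 2 called 0. The list summed to 284 to 289 CPM in DAF-TM libraries and 287 to 317 in controls. Most of this sum was Lck, the only T cell marker with a negative log2 fold change (-0.26), so the sum does not describe the rest. Of the 12 markers 11 had positive log2 fold changes, and for 9 both DAF-TM libraries lay above every control. Of 11 macrophage or monocyte markers Vcam1, Slc40a1, Csf1r and C1qb were called higher by edgeR, while DESeq2 called 2 and limma-voom 3 (sum 108 to 163 CPM in DAF-TM libraries, 87.1 to 145 in controls). Lyz2, the most abundant of them, stood at 57.3 and 32.6 CPM in DAF-TM libraries and at 45.0 to 95.5 in controls (log2 fold change -0.65, SE 0.33). Among 8 dendritic cell markers Ly6d and Siglech were called higher by all 3 tools. The list summed to 276 to 387 CPM in DAF-TM libraries and 182 to 225 in controls, in every library most of it Ly6d, the early lymphoid gene already given among those most like Klf2. Without DAF-TM library 1 no marker of these 4 cell types was called, and the list medians were log2 fold changes of 1.08 for natural killer, 0.78 for T, 0.88 for macrophage and 0.47 for dendritic cells. With all libraries these medians were 1.53, 0.80, 0.93 and 0.54.

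The markers of naive or follicular B cells, in which KLF2 is high, gave 3 calls of 8, all higher, against 0.373% of all genes tested. All 3 were held by the homing list as well, Ccr7 and S1pr1 among them. Without DAF-TM library 1 the median log2 fold change of the 8 markers was -0.19, against 0.25 with all libraries. The other 5 were not called, with Fcer2a at 211 and 229 CPM in DAF-TM libraries and at 170.3 to 287 CPM in controls. Of the 13 germinal centre and pan-B markers none was called by the 3 tools, 12 had negative log2 fold changes (median -0.14), and 2 had an unadjusted p under 0.05, both lower. The abundant B cell surface genes Ms4a1 and Cd79b had log2 fold changes of -0.28 and -0.09. Bcl6, the master regulator of the germinal centre, stood at 214 and 238 CPM in DAF-TM libraries, below the 278 to 312 CPM of the controls (log2 fold change -0.37, SE 0.17, adjusted p = 0.795).

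Markers of endothelial and stromal cells, in which Klf2 and Klf4 are abundant, were read from a list of 10. Of these 10 markers none was called by the 3 tools and 0 had an unadjusted p under 0.05. They summed to 121 to 132 CPM in DAF-TM libraries and 115 to 124 in controls. The largest part was Pecam1, which B cells also use, at 76.7 and 58.9 CPM in DAF-TM libraries and 65.9 to 76.9 in controls. Log2 fold changes were positive for 9 of the 10 (median 0.21), and Vwf had 0.08. All but Pecam1 and Pdgfrb were highest in DAF-TM library 2. The defining gene Cdh5 stood at 2.16 and 6.33 CPM in DAF-TM libraries and at 2.01 to 3.68 CPM in controls, and Tek at 3.06 and 3.97 CPM in DAF-TM libraries and at 2.01 to 3.39 CPM in controls. Of 6 erythroid markers tested none was called by the 3 tools and 0 had an unadjusted p under 0.05 (sum 21.6 to 25.0 CPM in DAF-TM libraries, 18.7 to 33.1 in controls), with Slc4a1 and Beta-s, the older symbol of Hbb-bs, at log2 fold changes of -0.03 and -0.34, and Hba-a1 was at 0 counts in every library. Of 6 neutrophil markers none was called by edgeR or DESeq2, limma-voom called 3, and 1 had an unadjusted edgeR p under 0.05. They summed to 14.5 to 48.1 CPM in DAF-TM libraries and 58.1 to 194 in controls, led by S100a8 and S100a9 with log2 fold changes of -1.76 and -1.56. These values depended on single libraries: they were -1.11 and -0.79 with DAF-TM library 1 left out and -0.98 and -0.92 with control library 3 left out. Leaving out DAF-TM library 2 gave -3.40 for S100a9. The list median was -1.66 with all libraries and -0.95, -0.86 and -2.70 in those fits. Apart from the erythroid gene Hba-a1, no marker with a row was at 0 in any library.

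**Figure D5:**
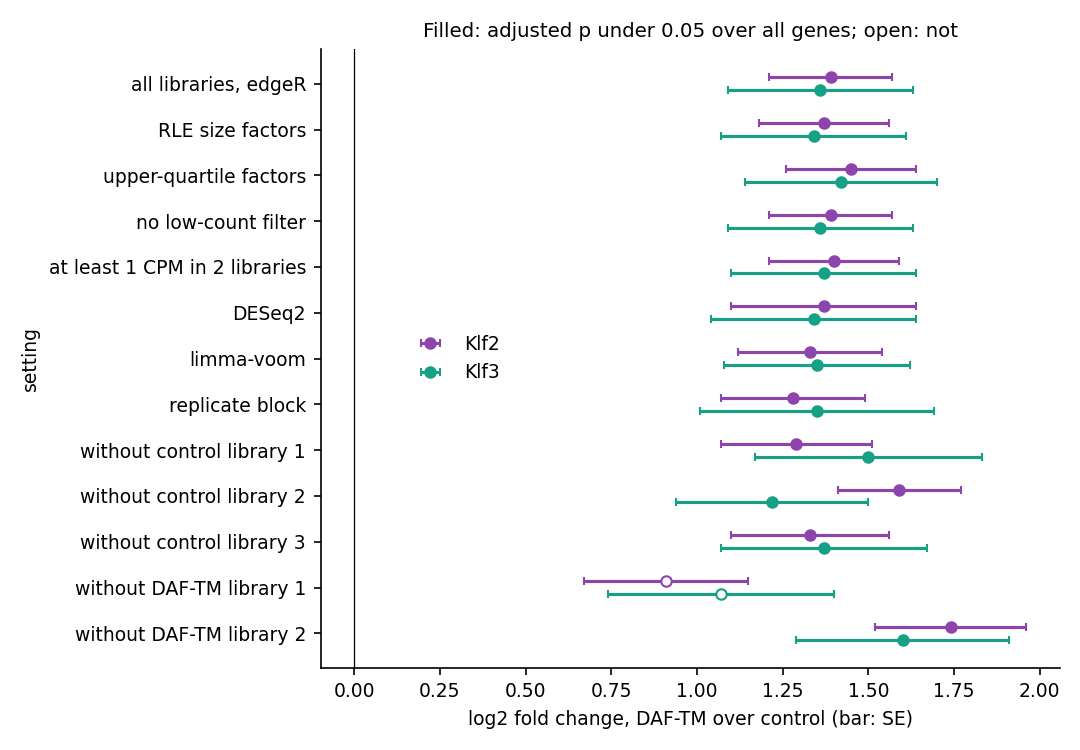
Log2 fold change (x axis) of DAF-TM over control with its SE for Klf2 (purple) and Klf3 (green) with all libraries and under each of 12 alternatives (rows), filled where the adjusted p over all genes was under 0.05. Without DAF-TM library 1 both are open, at 0.91 and 1.07, and without DAF-TM library 2 they are at 1.74 and 1.60.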

How the data were processed

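RNA of 6 samples was sequenced from 10 ng of total RNA with an oligo-dT kit (SMART-Seq v4) as single-end reads of 100 nt, per the labels' protocols. The deposited values are raw gene counts in 1 table. The submitters' processing notes name HISAT2, featureCounts and bcl2fastq with no version, and the file headers name the build mm10. The sources used here do not state the gene annotation or the strand setting.

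Every column was mapped by its name; 1 column was an exact copy, and 5 libraries entered the fits. In 27 rows a date replaced the symbol (0.266% of the counts of a library or less), and they were kept in the fit. Genes were tested with edgeR 4.0.16 in R 4.3.3 (TMM, filterByExpr, robust glmQLFit, glmQLFTest, threshold 0.05; 3 residual degrees of freedom, median prior 1139). Alternatives used DESeq2 1.42.0, limma 3.58.1 (voom), other scalings and filters, a replicate block, and each library left out. The procedure was tested on counts simulated with the spread of the fit and no effect of single libraries. That test cannot speak to how calls depend on 1 library. SE is the log2 fold change over the root of F. CPM are TMM-normalised, and counts carry no molecular identifiers.

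The members and lists were chosen with earlier results of these data known. Named genes were the 9 members and, per list, up to 4 called genes of lowest p or, with none called, the 2 most abundant, and the 5 genes of most like profile for the members of highest and lowest fold change. Other list genes printed were named after their values were seen. Of the list genes all but Ly6g had a row, Adgre1 and Hbb-bs under older symbols. Some genes that this rule names are not reported here.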

Additional observations from a re-analysis of the deposited data

How the results depend on the processing

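Over the 12 alternatives, 102 of 108 fold changes of the members moved by less than 1 SD between replicates. Both Klf calls were kept in 11 alternatives and 0 Klf genes were called without DAF-TM library 1, so the count over the fits without 1 library ran from 0 to 2. Of all genes, 77 were called with all libraries, 39 with upper-quartile factors, 28 with DESeq2, 51 with limma-voom, and 14 (without DAF-TM library 1) to 118 (without DAF-TM library 2) with 1 library left out; the cause was not tested. Fits with 1 library in a group assume that it varies like the other group. The replicate number as a block gave 61 calls, Klf2 and Klf3 among them. Deviations from the group means correlated at -0.117 and -0.255 between same-numbered libraries over all genes tested. With 2 DAF-TM libraries these values are not independent, so they cannot decide whether the numbers mark pairs. The log2 fold changes of Klf7, Klf10 and Klf11 changed sign under at least 1 alternative. Depth limits Klf4, with 8 to 21 counts per library.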

Other observations

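Genes on the lists that varied more within the groups than between them were noticed after their values were seen. The heat shock gene Hspa1b stood at 33.5 and 3.38 CPM in DAF-TM libraries 1 and 2 and at 16.3, 1.19 and 2.45 CPM in control libraries 1 to 3, and Jun at 58.5 and 13.5 CPM in DAF-TM libraries and at 18.4, 4.07 and 12.1 CPM in controls. In both groups library 1 was the highest for these genes. Cxcr3, a chemokine receptor that KLF2 holds down in T cells, stood at 41.1 and 5.57 CPM in DAF-TM libraries and at 51.4, 13.3 and 61.0 CPM in controls, lowest in library 2 of either group. Among the Klf genes, Klf3, Klf4, Klf10 and Klf13 were likewise highest in library 1 of both groups. Klf2, Klf6 and Klf12 were highest in DAF-TM library 1 and in control library 2.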
